A study of Rattus norvegicus with 63 samples.

Results

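Cebpb and Cebpd encode C/EBPβ and C/EBPδ, basic leucine zipper transcription factors of the CCAAT/enhancer-binding protein family, and were followed here in rat kidney after rats received methylprednisolone, a synthetic glucocorticoid, by injection. Both are among 10620 genes that the arrays name by 1 symbol. A probe set is a group of short probes read together as 1 value. The members were every probe set that the platform annotation, with symbols updated through RefSeq, assigns to either symbol. They are 9 of 24722 probe sets on both array types. The main array type holds 4 of them among 15923 probe sets, 1 for Cebpb (1387087_at) and 3 for Cebpd (1368813_at, 1387343_at and 1389828_at). The second array type holds 5 among 8799, Cebpb S77528cds_s_at and X60769mRNA_at, and Cebpd M65149_at, rc_AA946292_at and rc_AI045030_s_at. RefSeq places Cebpb at chr3:176817005-176818436 and Cebpd at chr11:98268856-98269994 in GRCr8, which served for names and not for the placement of probes.

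Total RNA came from whole kidney of rats killed without treatment, called 0 h, or after the injection, at 16 times that run from 0.25 to 72 h. The main array type carries 4 libraries at 0 h and 3 at every other time, 52 in all, with the 2 arrays of 5 h replicate 1 averaged. The second carries 10 libraries: 4 untreated, 3 of 2 h and 3 of 6 h. Dose, strain, sex and age are not given in the labels used here, and no vehicle-injected group was analysed, so the injection itself and the drug cannot be told apart. The labels give no clock hour either, so the part of time of day in differences between times was not tested. The labels number the replicates without naming animals, so a p-value here reflects scatter among samples that may be technical.

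C/EBP proteins bind DNA as dimers that form through the leucine zipper, with each other or with related zipper proteins. C/EBPβ and C/EBPδ are known as factors of the acute phase response, downstream of interleukin 6, interleukin 1 and STAT3, and both take part in early adipocyte differentiation. Glucocorticoids act through the receptor encoded by Nr3c1, a ligand-activated transcription factor, and both Cebpb and Cebpd are known in several cell types as genes that respond to them.

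The RefSeq promoter table holds 4 of the 5 C/EBP genes looked up and has no entry for Cebpd. The 250 bases before the annotated start of Cebpb (GRCr8 chr3:176816755-176817004, plus strand) are shown beside those of Cebpg (chr1:96829737-96829986, minus strand), a related C/EBP gene that passed in no window below. Capitals mark matches to the motifs searched, on either strand.
Cebpb: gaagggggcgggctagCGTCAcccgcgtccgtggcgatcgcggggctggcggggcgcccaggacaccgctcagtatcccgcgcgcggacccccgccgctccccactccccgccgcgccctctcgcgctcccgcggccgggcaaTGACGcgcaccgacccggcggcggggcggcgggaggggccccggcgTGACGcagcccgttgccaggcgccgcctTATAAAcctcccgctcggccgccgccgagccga
Cebpg: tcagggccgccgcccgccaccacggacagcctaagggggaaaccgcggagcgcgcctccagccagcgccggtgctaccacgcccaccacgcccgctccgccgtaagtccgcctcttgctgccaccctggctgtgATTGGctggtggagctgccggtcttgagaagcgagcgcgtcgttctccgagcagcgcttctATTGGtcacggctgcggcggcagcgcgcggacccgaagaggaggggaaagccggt
The Cebpb window holds 3 matches to TGACG, the core of a cAMP response element, which begin at -234, -107 and -61 from the start, the first on the minus strand. It also holds 1 TATA box, TATAAA, at -33. Of 33469 RefSeq promoter windows of the same length, 18.2% hold TGACG and 12.9% hold TATAAA. No match in the Cebpb window was found to the whole cAMP response element TGACGTCA (which contains TGACG, held by 1.59% of windows). None was found to AGAACA (17.5%), the half-site of the glucocorticoid response element, and the whole of that element was not searched. The window also held no match to the C/EBP core TTGCNNAA (9.22%) or its palindrome TTGCGCAA (0.14%), the STAT motif TTCNNNGAA (7.67%) or the CCAAT box CCAAT (34%). The Cebpg window holds 2 matches to CCAAT, at -116 and -55, and none to the other motifs. Of the windows not shown, that of Cebpa holds 1 TATAAA, at -35, and that of Cebpe 1 TTCNNNGAA, at -213. Neither holds a match to the other motifs. A match is a description of letters in the window and not a binding site.

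Across the series, the middle of the values of each array had been scaled to the same mean, and main-type array medians lay between 65.6 and 83.3 and second-type medians between 38.8 and 45.0. Markers of kidney were high, with a summed signal of 11575 to 13097 over 8 of 9 listed genes in the 0 h libraries, which include the tubule genes Umod and Slc34a1. In 6 libraries, 0.25 h replicate 2, 0.5 h replicate 3, 1 h replicate 2, 5 h replicate 2, 7 h replicate 3 and 8 h replicate 1, the signal of Fga, the fibrinogen alpha chain, was over 1000 and over 10 times the lowest library of the same time. They are called the libraries of high Fga, were picked after the values were seen, and the window differences, steps, shifts and correlations of the members are also given without them. Cebpb and Cebpd 1368813_at and 1387343_at were the highest of their time in all 6. Leaving the 6 out therefore also narrows the spread of these probe sets, and a call made without the 6 libraries is no independent support. No library of 2 or 4 h is among them, because Fga was high in every replicate of these times (523 to 2509), so leaving them out does not touch values at 2 to 4 h. Summed over 9 of 11 listed macrophage and neutrophil markers, the 6 libraries had 2450 to 3599 and the 0 h libraries 1301 to 1567. Summed kidney markers were 7043 to 11877 in the 6 libraries, which include the lowest of all 52, against the 11575 to 13097 at 0 h. Adipocyte markers summed to 46.2 to 359 in them and 75.1 to 103 at 0 h, liver markers to 319 to 386 and 336 to 441, and adrenal markers to 87.5 to 173 and 123 to 160.0. In whole tissue, more cells of a type and more RNA per cell cannot be told apart.

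Cebpb was low in untreated kidney, rose within the first hour, had its highest means at 4 and 2 h and overlapped its untreated level from 7 h on. Its signal in the 4 untreated libraries was 11.8, 61.3, 50.6 and 71.0. At 0.25 h it was 129, 703 and 120.2, at 0.5 h 139.8, 412 and 659, at 0.75 h 186, 233 and 135, and at 1 h 151, 1201 and 239. Every library of the first hour lay above every untreated library, and the replicate with the highest signal at 0.25, 0.5 and 1 h was in each case the library of high Fga.

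At 2 h the Cebpb signal was 738, 263 and 781, and at 4 h it was 485, 641 and 569. At 5 h it was 202 and 145 on the 2 arrays of replicate 1, 1113 in replicate 2 and 248 in replicate 3. At 5.5 h it was 191, 250.0 and 350.4, and at 6 h 130.1, 278 and 293. All of these were still above the untreated libraries, which made 9 of 16 times without overlap. Of all 9520 tested probe sets, the share wholly above 0 h was, for these 9 times in order, 3.26%, 4.28%, 3.8%, 3.98%, 8.61%, 12.3%, 6.62%, 8.99% and 9.19%. At 7 h (53.7, 77.6 and 379) and 8 h (307, 64.2 and 41.1) the replicates fell apart, with 1 high library at each time and the others in or next to the untreated range. From 12 to 72 h the signal stayed between 29.6 and 99.2 in all 15 libraries.

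**Figure D1:**
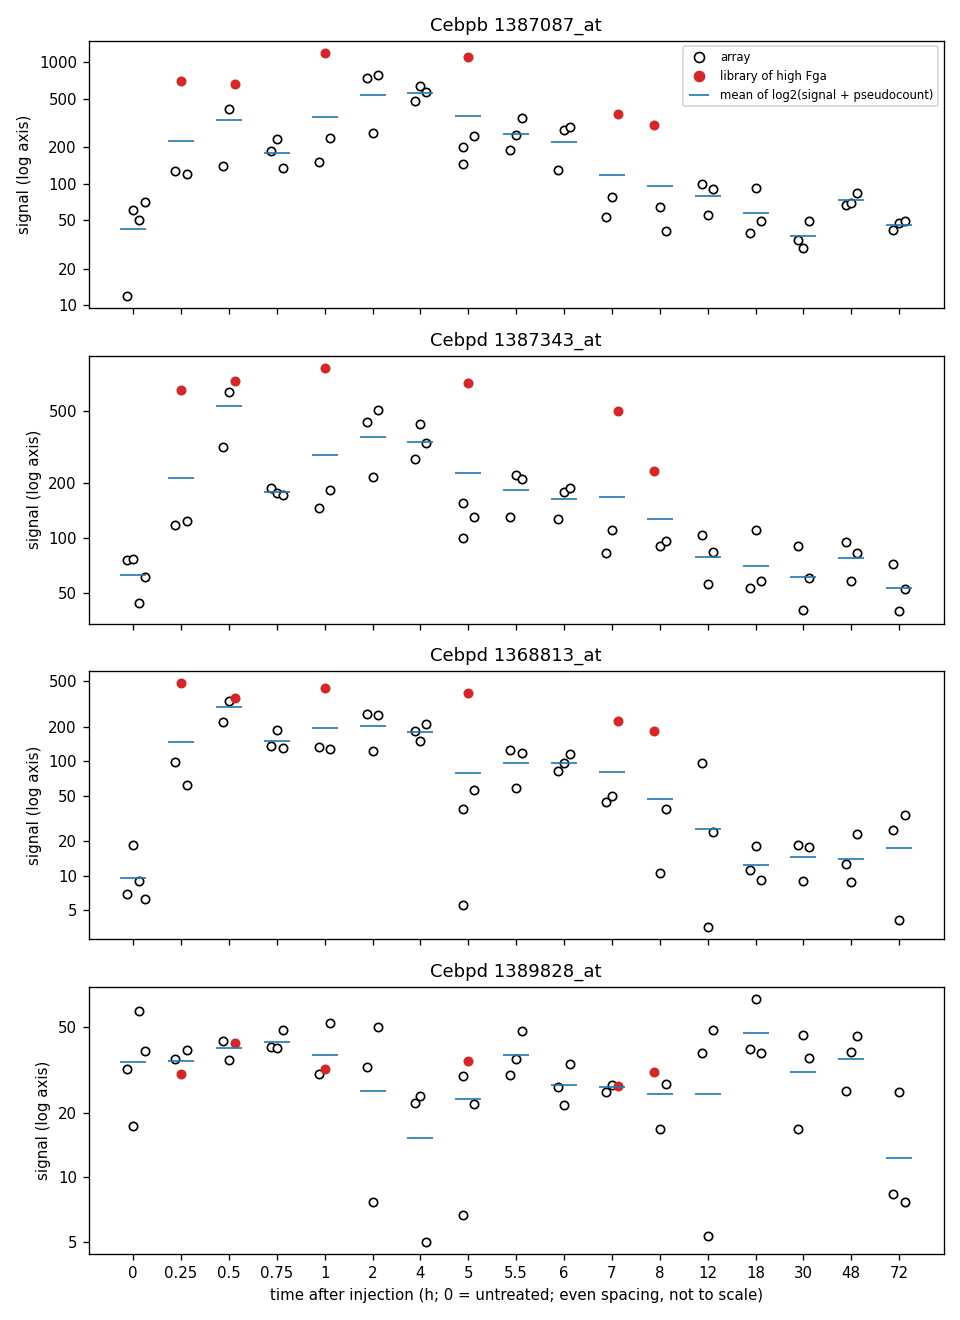
Signal (log axis) of the 4 main-type probe sets of Cebpb and Cebpd on every array, by time after injection (evenly spaced), with red points for the libraries of high Fga and a blue bar for the mean of log2 values. Cebpb and 2 of the Cebpd probe sets lie above the untreated arrays from 0.25 to 4 h and return by 12 to 18 h, and the red points are the highest of their time in these 3 panels; Cebpd 1389828_at overlaps 0 h at all 16 times.

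Differences are given on the scale log2(signal + 7.63), which understates the change of dim probe sets, and were tested with limma, adjusted over the 9520 tested probe sets by Benjamini-Hochberg with a threshold of 0.05. Cebpb rose by 2.45 ± 0.50 (SE) in the window from 0.25 to 1 h (adjusted p = 0.00463), by 3.48 ± 0.56 from 2 to 4 h (adjusted p = 2.42e-05) and by 1.98 ± 0.49 from 5 to 8 h (adjusted p = 0.00496). These correspond to 5.45-fold, 11.2-fold and 3.94-fold on that scale. At 12 to 18 h the difference was 0.59 ± 0.56, and at 30 to 72 h it was 0.22 ± 0.52 with a 95% interval from -0.83 to 1.27, neither past the test. The first and the third of these calls rested on 0 h replicate 1, the library with a signal of 11.8: without it Cebpb differed by 2.00 at 0.25 to 1 h (adjusted p = 0.101) and by 1.53 at 5 to 8 h (adjusted p = 0.0789). Without the 6 libraries of high Fga the first and the third difference were 1.91 and 1.50, both past the test, and no library of the 2 to 4 h window was left out. The spread of the fit was smaller without them, with an SE for Cebpb at 2 h of 0.38 in place of 0.66.

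Time by time, Cebpb passed against 0 h at 0.5, 1, 2, 4, 5, 5.5 and 6 h, 7 of 16 times. Only the calls at 2 and 4 h held with every library left out in turn: those at 0.5, 1, 5.5 and 6 h were lost without 0 h replicate 1, and that at 5 h without 5 h replicate 2 (2.10, adjusted p = 0.106). Among all tested probe sets, the share called higher was, from 0.25 to 6 h in order, 0.0735%, 0.473%, 0.326%, 0.567%, 2.61%, 5.71%, 3.18%, 3.29% and 3.09%. It was then 2.26% (7 h), 1.14% (8 h), 0.0945% (12 h), 0.126% (18 h) and 0% from 30 h on. The highest differences were 3.44 ± 0.66 at 2 h and 3.51 ± 0.66 at 4 h. At 0.25 h the difference was 2.22 ± 0.66 (adjusted p = 0.332), and at 0.75 h it was 1.92 ± 0.66 (adjusted p = 0.612). At 0.75 h the replicates lay close together and Fga was between 31.0 and 103.8, near its untreated range of 11.4 to 68.5. In replicate 1 of 0.75 h the chemokine gene Cxcl1 (164) and the interleukin gene Il1b (221) were above their untreated ranges of 6.76 to 28.6 and 29.9 to 60.3. Replicates 2 and 3 were within them (9.07 and 12.6 for Cxcl1, 41.0 and 49.5 for Il1b). The lipocalin gene Lcn2 was between 88.9 and 120.5 at 0.75 h, above its untreated 24.2 to 80.5. The part of these in Cebpb was not tested. Without the 6 libraries of high Fga, the difference for Cebpb at 0.75 h was the same 1.92 and passed (adjusted p = 0.00408), with a smaller spread over the fit.

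Cebpd, measured by its brightest main-type probe set 1387343_at, rose as early and had its highest mean at 0.5 h, earlier than Cebpb. Its signal was 75.9, 76.6, 44.1 and 61.7 at 0 h. At 0.25 h it was 118, 652 and 124, at 0.5 h 315, 633 and 729.6, at 0.75 h 188, 178 and 172, and at 1 h 147, 854 and 184. All 12 libraries of the first hour were above the untreated ones, and at 0.5 h both replicates outside the high-Fga set were high as well. In both of these replicates the chemokine gene Cxcl1 (1876 and 2034) was above its untreated range of 6.76 to 28.6. The interleukin genes Il1b (790 and 919) and Il6 (139 and 147) were above 29.9 to 60.3 and 12.5 to 22.9. The part of this in Cebpd was not tested.

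At 2 and 4 h the mean of 1387343_at for Cebpd was below that of 0.5 h and above those of 0.25, 0.75 and 1 h, with overlap between neighbours in the order, and it then declined. At 2 h the signal was 430.1, 216 and 501, at 4 h 272, 421 and 331, and at 5 h 100.2 and 155 on the arrays of replicate 1, then 708 and 131. At 5.5 h it was 131, 222 and 209.8, and at 6 h 128, 179 and 189. It remained above every untreated library through 8 h, where the lowest value was 90.6, which made 11 of 16 times without overlap, with 6.21% of probe sets wholly above 0 h at 7 h and 6.69% at 8 h. From 12 to 72 h its values, between 39.7 and 111, overlapped those at 0 h.

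Against 0 h, 1387343_at rose by 2.00 ± 0.41 at 0.25 to 1 h (adjusted p = 0.0051), by 2.33 ± 0.46 at 2 to 4 h (adjusted p = 0.000493) and by 1.33 ± 0.40 at 5 to 8 h (adjusted p = 0.0261), or 4.01-fold, 5.01-fold and 2.52-fold. At 12 to 18 h Cebpd differed by 0.22 ± 0.46, and at 30 to 72 h by 0.00 ± 0.43 with a 95% interval from -0.86 to 0.87. The call at 5 to 8 h was lost without any of the 4 untreated libraries, with adjusted p from 0.0504 without replicate 2 to 0.123 without replicate 3, and also when the replicate number was added as a block (1.32, adjusted p = 0.0698). The call at 0.25 to 1 h was lost without 0 h replicate 3 (1.85, adjusted p = 0.0595). Leaving out the libraries of high Fga gave 1.56 and 0.94 in the first and the third window, both past the test. Single times passed at 0.5, 2, 4 and 5 h, 4 of 16, of which 2 h was lost without 2 h replicate 3 (2.14, adjusted p = 0.0565) and 5 h without any 1 of the untreated libraries, among others. Without the libraries of high Fga, 0.75, 1, 5.5 and 6 h passed as well, and 5 h did not (0.93, adjusted p = 0.0874).

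The other responding Cebpd probe set, 1368813_at, started from a much dimmer level and had its highest means at 0.5 and 2 h, as 1387343_at had, with the other times in a different order. At 0 h its signal was 6.88, 18.6, 8.93 and 6.29, around the pseudocount. It was 99.4, 481 and 62.3 at 0.25 h, 221, 335 and 362 at 0.5 h, 136, 188 and 130.4 at 0.75 h, and 133, 439.7 and 129.7 at 1 h. Its highest mean signal was 299, at 0.5 h.

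At 2 h the signal of 1368813_at was 262, 124 and 255, and at 4 h 185, 149 and 211. At 5 h the 2 arrays of replicate 1 gave 5.54 and 38.1, beside 400.5 and 56.7 in the other replicates. At 5.5 h it was 126, 58.5 and 119, at 6 h 82.4, 97.1 and 116, and at 7 h 44.5, 50.2 and 226. At 8 h it was 185, 10.7 and 38.7, and at 12 h 97.6, 3.59 and 24.1, so that 12 h held both a library well above the untreated range and the lowest value of the probe set. From 18 to 72 h it lay between 4.14 and 34.2. Of the 16 times, 9 did not overlap 0 h; 5 h did, since the averaged replicate 1 fell within the untreated range.

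Cebpd 1368813_at rose by 3.52 ± 0.53 at 0.25 to 1 h (adjusted p = 3.83e-05), by 3.53 ± 0.60 at 2 to 4 h (adjusted p = 5.36e-05) and by 2.31 ± 0.52 at 5 to 8 h (adjusted p = 0.00199). It passed at 9 of 16 single times, from 0.5 to 7 h, and the calls at 0.5, 2 and 4 h were the ones that held with every library left out in turn. The windows of 0.25 to 1 h and 5 to 8 h were 3.14 and 1.77 without the libraries of high Fga, both past the test. Without them the 5 h value went from 2.33 to 1.21 (adjusted p = 0.256) and the 7 h value from 2.37 to 1.67 (adjusted p = 0.0959), and neither passed. At 12 to 18 h the difference was 0.60 ± 0.60, and at 30 to 72 h it was 0.42 ± 0.56.

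The remaining Cebpd probe set, 1389828_at, did not follow the others. Its signal lay between 5.01 and 67.7 on all arrays and overlapped the untreated libraries (32.1, 17.3, 59.5 and 38.9) at all 16 times. It was below the level filter and was fitted only without that filter, where its differences from 0 h were 0.14 ± 0.30, -0.62 ± 0.33 and -0.27 ± 0.29 in the first 3 windows. Its moderated F test over all times gave adjusted p = 0.322.

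Of the 4 main-type probe sets, 3 passed the level filter (a mean over all libraries equal to a signal of 52.3) and were tested. The untreated means of Cebpb (42.2) and of Cebpd 1368813_at (9.58) were under that level, so both passed it through the times at which they were high, and their share among tested probe sets carries no weight. All 3 passed the moderated F test over the 17 times, with adjusted p = 3.49e-05 for Cebpb, 8.49e-06 for Cebpd 1368813_at and 0.000137 for Cebpd 1387343_at, beside 16.1% of all tested probe sets. All 3 were called higher in each of the first 3 windows, where 0.62%, 5.17% and 4.98% of tested probe sets were. At 12 to 18 h limma called 0 of 3 (0.284% of probe sets higher), and at 30 to 72 h 0 of 3 (0%), with 0 of 3 at an unadjusted p under 0.05 in either window.

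Set against the libraries of 30 to 72 h in place of the untreated ones, the same rises were seen. The differences in the first 3 windows were 2.23, 3.26 and 1.76 for Cebpb, 2.00, 2.32 and 1.33 for Cebpd 1387343_at, and 3.10, 3.11 and 1.89 for Cebpd 1368813_at. All 9 passed, with the highest adjusted p at 0.00087, beside 3.17%, 8.88% and 12.5% of probe sets called higher. With the libraries of high Fga left out, the first and the third difference were 1.69 and 1.28 for Cebpb, 1.55 and 0.94 for 1387343_at, and 2.72 and 1.35 for 1368813_at, all past the test. At 12 to 18 h against 30 to 72 h the differences were 0.38, 0.21 and 0.17, none past the test, as 0.546% of probe sets were.

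**Figure D2:**
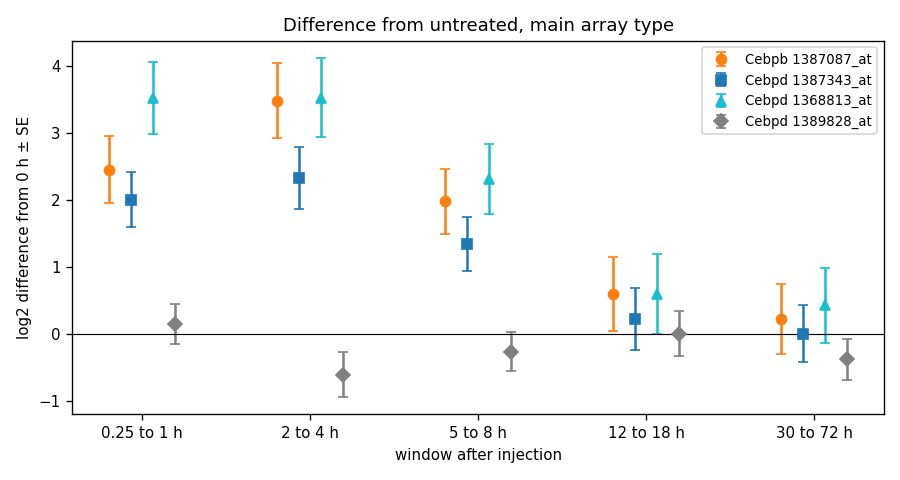
Difference from 0 h on the log2 scale (points, with SE bars) of the 4 main-type probe sets in the 5 windows after injection. Cebpb is highest at 2 to 4 h (3.48), both responding Cebpd probe sets are about as high at 0.25 to 1 h as at 2 to 4 h, and all lie near 0 at 30 to 72 h.

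No single step between neighbouring times passed for the members: 0 of 45 steps of the 3 tested probe sets in limma, with 2 at an unadjusted p under 0.05 and the lowest adjusted p at 0.569. Over all probe sets and steps together, 0.0749% passed. When the 17 times were ordered by mean level, all 16 pairs of neighbours in that order overlapped for each of the 4 probe sets. Without the libraries of high Fga 3 of the 45 steps passed in limma. They were 1387343_at from 0.25 to 0.5 h (1.82, adjusted p = 0.0142) and from 4 to 5 h (-1.34, adjusted p = 0.0314), and 1368813_at from 4 to 5 h (-2.24, adjusted p = 0.0317). The libraries of 0.5 h that remained had high Cxcl1, Il1b and Il6, as given above. The highest means were those of 4 h (mean signal 562) and 2 h (535) for Cebpb, and of 0.5 h (527) followed by 2 h (360.3) for Cebpd 1387343_at.

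The difference in timing between the genes was tested within libraries, as log2 Cebpb minus log2 Cebpd, where the scaling of an array cancels. The mean of Cebpb minus 1387343_at was -0.07 ± 0.45 (SD, n = 12) in the first hour and 0.64 ± 0.20 (SD, n = 6) at 2 to 4 h, a shift of 0.71 towards Cebpb (two-sided exact permutation test, p = 0.00199, adjusted p = 0.00598 over 6 pairs of probe sets). In 5 of 6 libraries of 2 to 4 h the value was above every library of the first hour. Against 1368813_at the shift was 1.03 (exact permutation test, adjusted p = 0.00259). The shifts also passed with 4 times the pseudocount, with 0.25 times it and after quantile normalization. Without the libraries of high Fga, all of which here are of the first hour, they were 0.78 and 1.19 and passed, while Fga remained high in every library of 2 to 4 h, so the part of what moves with Fga in the shift was not tested. This comparison was added after the values were seen. Between both responding Cebpd probe sets the shift was -0.32 (exact permutation test, adjusted p = 0.101), and it passed without the libraries of high Fga (-0.40, adjusted p = 0.0344).

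**Figure D3:**
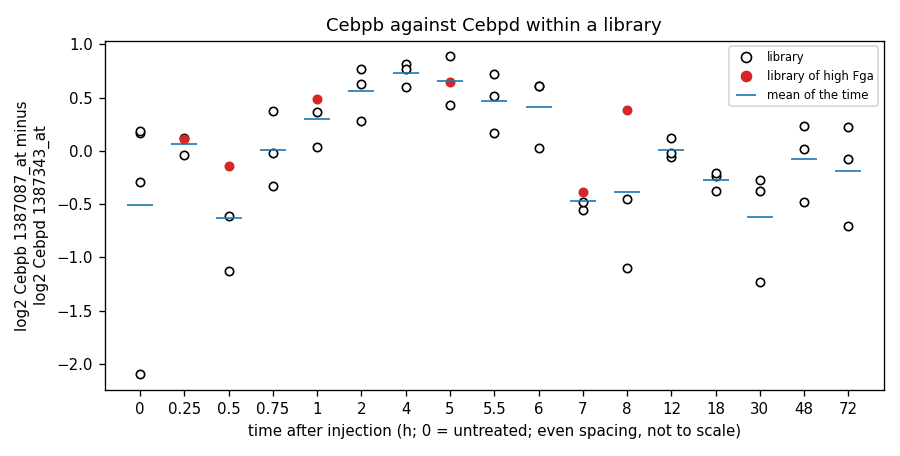
log2 Cebpb 1387087_at minus log2 Cebpd 1387343_at in each of the 52 libraries by time after injection (evenly spaced), with a blue bar for the mean of a time and red points for the libraries of high Fga. Within the first hour the mean is lowest at 0.5 h, and the values lie between 0.28 and 0.82 at 2 and 4 h.

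Set against the untreated libraries, the same within-library differences gave 30 tests, for 6 pairs of probe sets in 5 windows, adjusted together. At 2 to 4 h Cebpb rose 1.15 more than Cebpd 1387343_at (exact permutation test, adjusted p = 0.013, the smallest p that 6 against 4 libraries allow). Without 0 h replicate 1, the library with a Cebpb signal of 11.8, this difference was 0.62 (adjusted p = 0.0357), and without the arrays that the labels letter b or c it was 1.21 and did not pass (adjusted p = 0.0659). In the first hour that pair differed by 0.44 (adjusted p = 0.4). In the first hour Cebpb rose less than Cebpd 1368813_at, by -1.07 (adjusted p = 0.022), and this was lost with 4 times the pseudocount (-0.48, adjusted p = 0.247) and without 0 h replicate 3 or 4.

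Among the Cebpd probe sets, 1368813_at rose more than 1387343_at by 1.52 in the first hour (exact permutation test, adjusted p = 0.0055), 1.20 at 2 to 4 h (adjusted p = 0.013) and 0.98 at 5 to 8 h (adjusted p = 0.0332). The last was lost without 0 h replicate 1 or 4 and without the libraries of high Fga (0.90, adjusted p = 0.0918). With 4 times the pseudocount the values at 2 to 4 h and 5 to 8 h were 0.45 and 0.39 and did not pass, so their size depends on how dim values are treated. Cebpb, 1368813_at and 1387343_at each rose more than 1389828_at in the first 3 windows, by 1.60 to 4.14, in all 9 tests, although in the first hour the calls of Cebpb (without 0 h replicate 1) and of 1387343_at (without 0 h replicate 3 or 4) rested on single untreated libraries. Without the arrays lettered b or c, which left fewer libraries, the differences from 1389828_at at 2 to 4 h did not pass. In the 2 late windows none of the 12 differences between probe sets passed.

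Replicates of the same time that were high for Cebpb were also high for Cebpd. Over 52 libraries, the deviations from the mean of the time correlated between Cebpb and Cebpd 1387343_at with Pearson's r = 0.87 (permutation p = 3e-05, adjusted p = 6e-05 over 6 pairs) and Spearman's rho = 0.80 (permutation p = 3e-05, adjusted p = 6e-05). Without the 2 libraries farthest from the median r was 0.83, and without the 6 libraries of high Fga it was 0.56 over 46 libraries. Cebpb and 1368813_at gave r = 0.77, and 0.39 without the 6 libraries, and both responding Cebpd probe sets gave r = 0.80, and 0.49 without them. All probe sets of a library share its RNA, array and scaling. The 3 pairs with 1389828_at gave r between 0.13 and 0.25, and without the 6 libraries between 0.18 and 0.37, the highest being Cebpb with 1389828_at, close to the 0.39 of Cebpb with 1368813_at.

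Cebpb and both responding Cebpd probe sets were the highest of their time in all 6 libraries of high Fga, and 1389828_at in 2 of 6. The ratio of the high library to the next highest for Cebpb was 5.46, 5.02, 4.49, 4.88 and 4.78 at 0.25, 1, 5, 7 and 8 h, but 1.60 at 0.5 h. For Cebpd 1387343_at it was 5.25, 4.63, 5.41, 4.45 and 2.42 at these times, and 1.15 at 0.5 h. At 2 h Fga was 2139, 523 and 2509, lowest in the replicate with the lowest Cebpb. At 4 and 6 h it went the other way. All 3 libraries of 4 h had Fga between 1863 and 2149, highest in replicate 1, which had the lowest Cebpb. At 6 h Fga was 778, 84.1 and 69.8, again highest in replicate 1, the replicate with the lowest Cebpb. In the 6 libraries macrophage and neutrophil markers were higher and summed kidney markers lower than in any 0 h library in 5 of the 6, with ranges as given above, and their part in the Cebpb and Cebpd values was not tested.

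**Figure D4:**
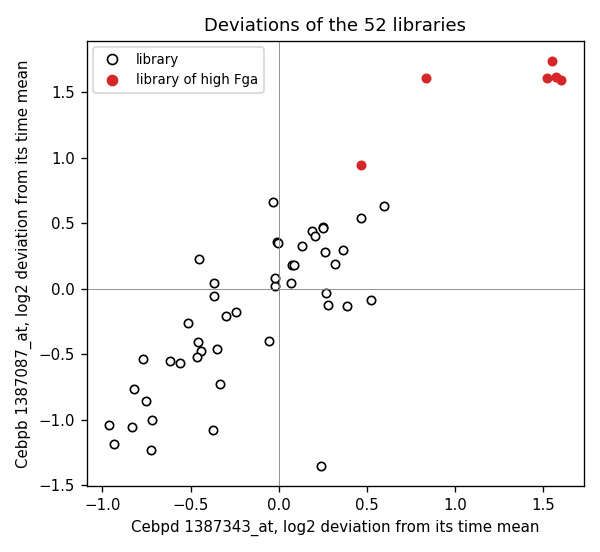
Deviation of each of 52 libraries from the mean of its time on the log2 scale, Cebpd 1387343_at on the horizontal and Cebpb 1387087_at on the vertical axis, with red for the 6 libraries of high Fga. The red points lie at the upper right end, and r is 0.87 with them and 0.56 without them.

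On the second array type, which was scaled separately, Cebpb was measured by 2 probe sets. X60769mRNA_at gave 46.8, 59.8, 50.5 and 69.1 at 0 h, 795, 249.6 and 810.2 at 2 h, and 262, 445 and 417 at 6 h. Its differences from 0 h, on log2(signal + 3.56), were 3.20 ± 0.38 at 2 h (limma, adjusted p = 0.000682) and 2.63 ± 0.38 at 6 h (adjusted p = 0.00197). Against 2 h its 6 h value differed by -0.57 (95% interval -1.45 to 0.31, adjusted p = 0.503), and the libraries of both times overlapped.

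S77528cds_s_at, the other Cebpb probe set, was at 3.44, 6.51, 4.54 and 3.46 at 0 h, 417, 204 and 285 at 2 h, and 51.8, 109 and 128 at 6 h. It rose by 5.20 ± 0.33 at 2 h (limma, adjusted p = 5.91e-06) and by 3.56 ± 0.33 at 6 h (adjusted p = 0.000127), and the 6 h value was lower than the 2 h value by -1.65 (adjusted p = 0.0465). Its untreated signals were at the size of the pseudocount, so the size of its rise depends on that choice.

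For Cebpd on the second type, M65149_at gave 37.0, 46.5, 44.5 and 41.0 at 0 h, 323, 234 and 369 at 2 h, and 89.0, 127 and 145 at 6 h. It rose by 2.75 ± 0.23 at 2 h (limma, adjusted p = 3.97e-05) and 1.41 ± 0.23 at 6 h (adjusted p = 0.00495), and it was lower at 6 h than at 2 h by -1.34 (adjusted p = 0.0231). The 3 times did not overlap.

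Cebpd rc_AI045030_s_at gave 6.34, 8.84, 5.13 and 5.44 at 0 h, 222, 209 and 225 at 2 h, and 43.2, 58.3 and 94.3 at 6 h. It rose by 4.49 ± 0.27 and 2.73 ± 0.27, and fell by 1.76 from 2 to 6 h (limma, adjusted p = 0.0156). Cebpd rc_AA946292_at did not move with it: its signals were 82.1 to 97.2 at 0 h, 81.7 to 126 at 2 h and 66.1 to 98.4 at 6 h, with differences of 0.17 ± 0.22 and -0.02 ± 0.22.

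S77528cds_s_at and rc_AI045030_s_at had untreated means of 4.40 and 6.34, under the second-type filter (a signal of 25.3), so both were tested only through the times at which they were high, and the members' share carries no weight. On the second type 4 of 5 probe sets passed at both times, where 4.82% of 5244 tested probe sets were called higher at 2 h and 1.56% at 6 h. From 2 to 6 h 3 of 5 fell, beside 0.744% of probe sets. These 3 falls rested on single libraries: the call of S77528cds_s_at was lost without any of 9 of the 10 libraries, that of M65149_at without any of 5 of the 6 libraries of 2 and 6 h, and that of rc_AI045030_s_at without 6 h replicate 2 (adjusted p = 0.0764). The 4 that rose also lay wholly above 0 h at both times, as did 10.9% of probe sets at 2 h and 6.79% at 6 h.

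Between array types, values at the same times can be set side by side but were not tested. At 2 and 6 h the main-type difference for Cebpb was 3.44 and 2.19, between which and X60769mRNA_at (3.20 and 2.63) the gap was under the SE of the main-type value. For Cebpd, 1387343_at gave 2.38 and 1.27 and M65149_at 2.75 and 1.41, both probe sets with an untreated signal well above the pseudocount of their table. The dimmer pair, 1368813_at and rc_AI045030_s_at, gave 3.61 and 2.61 against 4.49 and 2.73. In all 7 probe sets that rose, 2 h replicate 2 was the lowest library at 2 h and 6 h replicate 1 the lowest at 6 h, on both array types. Both array types carry the same replicate numbers, and the sources used here do not say whether they share RNA. Library 2 h replicate 2 also had the highest summed liver and adipocyte markers of any library on both types. These sums were 1340 and 531 on the main type and 728 and 1260 on the second. On the second type its summed kidney, macrophage and neutrophil, and adrenal markers were the highest too. Single genes weighed in these sums. On the main type the liver marker Alb was 793 in this library, while on the second it was at most 25.7 in any library. The adipocyte marker Lep lay between 564 and 1076 over all second-type libraries. The part of these markers in the low Cebpb and Cebpd of 2 h replicate 2 was not tested.

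**Figure D5:**
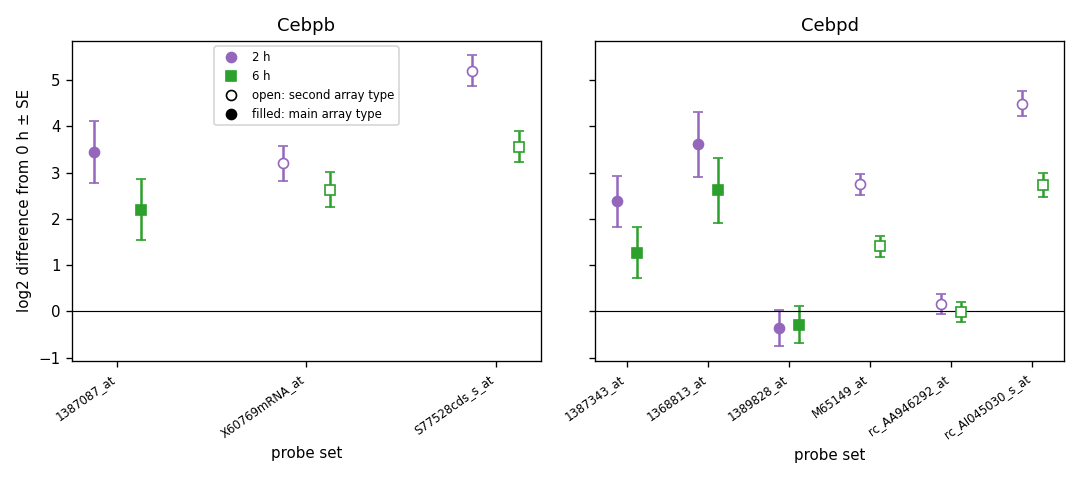
Difference from 0 h on the log2 scale (SE bars) at 2 h (circles) and 6 h (squares) for every Cebpb and Cebpd probe set, filled for the main and open for the second array type. All 3 Cebpb probe sets and 4 of 6 Cebpd probe sets are high at 2 h and lower at 6 h, and 1389828_at and rc_AA946292_at lie near 0.

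The time courses most like that of Cebpb, over the 17 time means and 8066 tested probe sets with 1 symbol, were those of Rasd1, a Ras-like GTPase known as induced by dexamethasone (r = 0.97), Gadd45b, a stress-response gene (r = 0.95), Resf1 (r = 0.94), Errfi1, a feedback inhibitor of the EGF receptor (r = 0.94), and Mafk, a small Maf zipper protein (r = 0.93). Rasd1 had a mean signal of 13.4 at 0 h and 310.4 at 2 h. The time courses most like that of Cebpd 1387343_at were those of Depp1 (r = 0.95), Nfkbia, the inhibitor of NF-κB (r = 0.95), Zfp36, which promotes decay of AU-rich mRNAs (r = 0.94), Gadd45b (r = 0.94) and Ppp1r15a, a phosphatase subunit of the stress response (r = 0.93). Depp1, Nfkbia and Zfp36 had their highest means at 0.5 h, as Cebpd did, and Gadd45b and Ppp1r15a at 2 h. The 5 genes nearest to Cebpb, Gadd45b among them, had theirs at 2 or 4 h. All were picked by likeness of the same time means, so a shared time of the highest mean follows in part from the choice. By Spearman's rho over these means, Depp1 ranked 12 for Cebpd and Resf1 ranked 20 for Cebpb. These are descriptions of time means, and replicates with high values weigh in them.

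No other C/EBP gene passed the test. Of Cebpa, Cebpe, Cebpg and Ddit3, the last encoding CHOP, a dominant-negative partner, only Cebpg and Ddit3 were above the level filter. At 2 to 4 h Cebpg, a widely expressed partner, differed by 0.09 ± 0.13 and Ddit3 by 0.43 ± 0.19 (limma, adjusted p = 0.158). In each of the 5 windows 0 of 2 passed, with at most 1 at an unadjusted p under 0.05. Cebpa, a factor of differentiated cells, differed by -0.11 ± 0.33 in the fit without the level filter. Of all tested probe sets, the share called higher in the 5 windows in order was 0.62%, 5.17%, 4.98%, 0.284% and 0%. On the second type it was 4.82% at 2 h and 1.56% at 6 h. These shares stand beside the counts of this list and of the lists below.

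Among 11 bZIP partners and regulators, 6 were tested, and 2 were higher at 2 to 4 h in limma: Jun, a subunit of AP-1, by 1.12 (adjusted p = 0.035, and 0.0516 with the replicate number as a block) and Atf4, a factor of the amino acid response, by 0.98 (adjusted p = 0.00207). Atf4 was still higher by 0.62 at 5 to 8 h (adjusted p = 0.0295, and 0.0932 with the block). The median of the list at 2 to 4 h was 0.76, beside -0.07 over all tested probe sets. On the second type Jun (1.96), Junb (1.53) and Atf3 (1.46) were higher at 2 h, 3 of 6 tested, and at 6 h 0 of 6 passed, with 0 at an unadjusted p under 0.05.

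Of 14 upstream signals 5 were tested on the main type. Il1b, which encodes interleukin 1 beta, was higher in the first hour by 2.10 ± 0.42 (limma, adjusted p = 0.00357). It did not pass with the replicate number as a block (1.94, adjusted p = 0.0527), and its untreated mean signal of 44.3 was under the level filter. Il6st, the gp130 receptor subunit shared by the interleukin 6 family, was higher by 1.47 at 2 to 4 h and by 0.97 at 5 to 8 h. Nr3c1, the glucocorticoid receptor, was lower by -0.79 and -0.63 in these windows. Stat3 (0.88, adjusted p = 0.155) and Socs3 (0.40, adjusted p = 0.473) did not pass at 2 to 4 h, and on the second type Stat3 (1.12) and Il1b (1.33) passed at 2 h, 2 of 7 tested. The median of the 5 was 0.59 in the first hour, 0.29 without the libraries of high Fga, and 0.88 at 2 to 4 h, beside -0.03 and -0.07 over all tested probe sets.

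Of 15 acute phase genes known as targets of C/EBP factors, 6 were tested on the main type. Of these, Fga, Fgg and Lcn2 had untreated means under the level filter and were tested only through the times at which they were high, so the count and the median of the 6 carry no weight. In the first hour 1 passed, Cp, the copper protein ceruloplasmin (0.72). At 2 to 4 h 5 of 6 were higher in limma: Fga by 5.27 ± 1.16, Fgg, the fibrinogen gamma chain, by 4.76 ± 1.19, Lcn2, the iron-siderophore carrier lipocalin, by 4.57 ± 0.83, C3 of complement by 2.43 ± 0.56, and Cp by 1.25 ± 0.19. At 5 to 8 h 3 of 6 were higher (Lcn2 3.20, C3 1.69, which did not pass with the block at an adjusted p of 0.061, and Cp 1.10), and at 12 to 18 h Cp alone (0.87). The median of the list went from 1.05 in the first hour to 3.50 at 2 to 4 h and 1.89 at 5 to 8 h, while over all tested probe sets it stayed between -0.07 and -0.01. At 5 to 8 h it was 0.99 without the libraries of high Fga. These libraries were chosen by a gene of this list, so a lower median follows in part from that choice. Without the level filter 5 of 15 were higher at 2 to 4 h, with a median of 1.06. On the second type, where 4 of the 14 tested had untreated means under the filter, 8 of 14 were higher at 2 h and 1 of 14, Cp, at 6 h.

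Of 10 metabolic and adipogenic genes, 5 were tested. Sds, serine dehydratase, was higher in the first hour (1.37, adjusted p = 0.041, and 0.203 with the replicate number as a block), at 2 to 4 h (4.25) and at 5 to 8 h (4.34). Igfbp1, an insulin-like growth factor binding protein, was higher by 3.82 at 2 to 4 h and 2.45 at 5 to 8 h, Lpl, lipoprotein lipase, by 1.48 and 1.25, and Asns, asparagine synthetase, by 0.65 at 2 to 4 h (adjusted p = 0.046, and 0.165 with the block). Pck1, the gluconeogenic enzyme, differed by 0.13 ± 0.17 at 2 to 4 h. In all, 1, 4 and 3 of 5 passed in the first 3 windows, with medians of 0.52, 1.48 and 1.25 over the 5, of which Sds had an untreated mean under the level filter. The first and the third median were 0.21 and 0.93 without the libraries of high Fga. On the second type 4 of 5 passed at 2 h and 2 of 5, Sds and Igfbp1, at 6 h.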

How the data were processed

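The deposited values are intensities on a linear scale, which the authors scaled per array, as the values show: the mean after leaving out 2% at each end was 150.0 on every array. The sources used here do not name the summary algorithm. Each table has its own scaling, and every test stayed within a table. Log2(intensity + pseudocount) was taken, with the 10th percentile of a table as pseudocount (7.63 and 3.56). Control probe sets (57 and 59) were left out, and tests covered the probe sets whose mean log2 level reached the 40th percentile (9520 and 5244). For arrays, their number limits the precision.

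limma 3.58.1 in R 4.3.3 (lmFit, eBayes with trend) fitted all times of a table, and its adjusted p-values are Benjamini-Hochberg values over all probe sets tested. Windows are unweighted means of their times. Simulated data had independent normal scatter and a log2 change of 2 at 0.25 to 1 h in 200 of 9520 probe sets. Tested once, the fit returned 200 with the right sign and 12 false calls. The simulation held no smaller changes and no libraries that stand apart, so it does not cover calls that depend on these. Exact permutation tests used scipy 1.17.1, and correlations 100000 permutations within times.

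Gene symbols came from the platform annotation: 12783 main-type and 7006 second-type probe sets have 1 symbol, and 312 and 308 have several and named no gene. All probe sets of both genes are reported. Of each list the genes past the threshold were counted, with the 4 largest named. The 5 most alike time courses were named. Members and lists were chosen with earlier results of these data known. Alternatives were other pseudocounts, no filter, quantile normalization, array weights, the replicate block, fewer times or arrays in the fit, each library left out and, added after seeing the data, the 6 libraries of high Fga left out.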

Additional observations from a re-analysis of the deposited data

Results flagged for a closer look

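Contrasts of treated times with each other, which use no untreated library, were listed where the test of the difference passed. On the main array type, Cebpb 1387087_at was higher than at 30 to 72 h by 2.23 at 0.25 to 1 h, 3.26 at 2 to 4 h and 1.76 at 5 to 8 h. Cebpd 1387343_at was higher by 2.00, 2.32 and 1.33 in the same windows, and Cebpd 1368813_at by 3.10, 3.11 and 1.89. On the second array type, the value at 6 h was lower than at 2 h for Cebpb S77528cds_s_at (-1.65), Cebpd M65149_at (-1.34) and Cebpd rc_AI045030_s_at (-1.76).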

How the results depend on the processing

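No result of the members changed sign under an alternative while it was called. With only the compared times in the fit, Cebpb at 0.25 to 1 h (2.45, adjusted p = 0.0595) and Cebpd 1387343_at at 5 to 8 h (1.33, adjusted p = 0.0658) did not pass. With the replicate number as a block, Cebpd 1387343_at at 5 to 8 h gave 1.32 (adjusted p = 0.0698), and no other window of the members lost its call. The deviations of same-numbered libraries from the time mean had a median r of 0.058 (-0.53 to 0.49, with 152 of 408 over 0.1). For different numbers the median was -0.027. Deviations cancel within a time, so these medians depend on each other. Whether same-numbered libraries shared more than a number was not tested.

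Of the differences between probe sets within a library, 4 times the pseudocount took the call from Cebpb minus Cebpd 1368813_at in the first hour (-0.48) and from Cebpd 1368813_at minus 1387343_at at 2 to 4 h (0.45) and 5 to 8 h (0.39). Without arrays lettered b or c, fewer libraries remained at 2 to 4 h and Cebpb minus 1387343_at (1.21), Cebpb minus 1389828_at (3.85), 1368813_at minus 1387343_at (1.13), 1368813_at minus 1389828_at (3.77) and 1387343_at minus 1389828_at (2.64) did not pass, nor did 1368813_at minus 1387343_at at 5 to 8 h (0.94). Without the libraries of high Fga the last was 0.90 and did not pass. Of the shifts from the first hour to 2 to 4 h, the Cebpd pairs 1368813_at minus 1387343_at (-0.40), 1368813_at minus 1389828_at (1.18) and 1387343_at minus 1389828_at (1.59) passed only without the libraries of high Fga, except that the last also passed with 0.25 times the pseudocount (1.32).

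Leaving out 1 library at a time gave 2.00 to 2.67 for Cebpb at 0.25 to 1 h, 1.53 to 2.20 for Cebpb at 5 to 8 h, 1.81 to 2.12 for Cebpd 1387343_at at 0.25 to 1 h and 1.17 to 1.43 at 5 to 8 h, each with a loss of the call without at least 1 untreated library. For pairs it gave 1.88 to 2.71 for Cebpb minus 1389828_at, -1.44 to -0.75 for Cebpb minus 1368813_at and 1.49 to 2.20 for 1387343_at minus 1389828_at in the first hour, and 0.82 to 1.11 for Cebpd 1368813_at minus 1387343_at at 5 to 8 h.

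List counts moved as follows. Without the libraries of high Fga 1 bZIP gene was higher in the first hour. Without the level filter 1 bZIP gene and 2 upstream genes were higher at 2 to 4 h, 2 upstream genes at 5 to 8 h and 0 metabolic genes in the first hour. With the replicate block 1 bZIP gene was higher at 2 to 4 h and 0 at 5 to 8 h, and 0 upstream and 0 metabolic genes in the first hour; the calls lost were those of Jun, Atf4, Il1b and Sds. The cause of these changes was not tested. With 4 untreated libraries, differences within the spread of 1 of them were not detectable, and signals near the pseudocount set the size of the rises of 1368813_at, S77528cds_s_at and rc_AI045030_s_at.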
